A study of Mus musculus with 13 samples.

Results

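Proneural bHLH factors are the transcription factors that commit neural progenitors to become neurons, and 8 of their genes were examined here: Atoh1, Neurod1, Neurod2, Neurod4, Neurod6, Ptf1a, Neurog1 and Neurog2. The members were all probe sets that the platform annotation assigns to one of these symbols alone, which gave 14 probe sets for 8 genes, out of 45037 probe sets and 18193 genes on the array. The 13 samples, each from its own untreated mouse, were measured on 1 Affymetrix array apiece. There were 6 primary medulloblastomas (Ptch1 MB) from Ptch1(+/-) mice, in which the hedgehog receptor gene Ptch1 was inactivated, 3 samples of granule neuron precursors of the cerebellum taken at P7, postnatal day 7 (P7 GNPC), and 4 samples of dorsal brainstem of E16.5 embryos (E16.5 DBS). Both normal tissues were wild type. The labels give neither the strain and age of the tumour mice nor whether the P7 GNPC samples were sorted cells, and they name no batch, so an effect of batch cannot be told apart from one of tissue.

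A bHLH factor binds DNA through a basic region and pairs through a helix-loop-helix with an E protein, usually at a short site called an E-box. In the mouse hindbrain Atoh1 marks the rhombic lip, whose progeny are glutamatergic and include cerebellar granule neurons, and Ptf1a marks the ventricular zone, whose cerebellar progeny are GABAergic and include Purkinje cells and interneurons. Neurog1 and Neurog2 are also used by ventricular zone progenitors, and the Neurod genes act later, as cells leave the cycle and differentiate.

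The sequence just upstream of the transcription start is shown for 4 genes, which include the opposite lineage factors: Atoh1, the rhombic lip factor, Neurod1 and Neurod2, which differed in how they changed, and Ptf1a, the GABAergic factor. Each line holds the 250 bases before the RefSeq start on GRCm38.p6, 5′ to 3′, and capitals mark an E-box, written CANNTG.
Atoh1 (chr6:64728875-64729124, plus strand): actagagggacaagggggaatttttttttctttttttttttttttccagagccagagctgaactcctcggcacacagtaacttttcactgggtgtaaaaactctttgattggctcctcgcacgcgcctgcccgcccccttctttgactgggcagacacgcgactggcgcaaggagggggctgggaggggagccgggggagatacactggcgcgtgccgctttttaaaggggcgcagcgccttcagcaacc
Neurod1 (chr2:79456637-79456886, minus strand): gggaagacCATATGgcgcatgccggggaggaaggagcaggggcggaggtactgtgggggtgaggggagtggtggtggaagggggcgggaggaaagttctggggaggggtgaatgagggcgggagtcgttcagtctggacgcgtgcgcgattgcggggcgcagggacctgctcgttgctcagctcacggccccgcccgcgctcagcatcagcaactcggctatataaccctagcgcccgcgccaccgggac
Neurod2 (chr11:98329646-98329895, minus strand): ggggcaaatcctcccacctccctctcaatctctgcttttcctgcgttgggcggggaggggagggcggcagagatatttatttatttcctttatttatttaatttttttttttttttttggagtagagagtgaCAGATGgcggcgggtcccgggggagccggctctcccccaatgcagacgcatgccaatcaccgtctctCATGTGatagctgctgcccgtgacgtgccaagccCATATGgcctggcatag
Ptf1a (chr2:19445413-19445662, plus strand): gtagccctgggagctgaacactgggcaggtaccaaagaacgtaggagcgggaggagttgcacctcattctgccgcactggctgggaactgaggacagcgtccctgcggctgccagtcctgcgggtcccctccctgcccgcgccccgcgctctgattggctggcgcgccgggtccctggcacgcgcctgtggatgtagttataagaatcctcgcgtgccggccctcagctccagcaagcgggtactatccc
The E-box motif reads the same on both strands, and all overlapping matches were counted. Among 32851 upstream windows of this length, 66.2% hold at least 1 E-box. Neurod2 has 3 in this window, which can be read off the capitals above, and Neurod6, whose sequence is not shown, has 2. Neurod1 has 1. The windows of Atoh1, Ptf1a, Neurog1, Neurog2 and both starts of Neurod4 hold none of these letters. The form CAGATG, searched with its reverse complement CATCTG, is in 14.4% of all windows, and the form CAGCTG, in none of the windows of the 8 genes, is in 13% of all windows.

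Array medians lay between 91.4 and 117.7 intensity units. Precision is limited by how many arrays each group has, and levels of different probe sets are not set against each other. The proliferating precursor markers averaged 12.4 to 12.8 on the log2(value + 18) scale in the tumours, 10.9 to 11.2 in P7 GNPC and 9.03 to 9.26 in E16.5 DBS. The Hox genes of the posterior hindbrain averaged at most 5.86 in a tumour and 5.46 in a P7 GNPC sample, against 10.2 to 10.6 in E16.5 DBS. Purkinje cell markers averaged 6.36 to 10.3 in the tumours, where tumour 2 was the highest, 11.5 to 11.9 in P7 GNPC and 8.7 to 9.08 in E16.5 DBS. Of the 8 measured, 0 were below the array median throughout P7 GNPC, 0 throughout the tumours and 3 throughout E16.5 DBS. In bulk samples such as these, fewer cells of a type and less RNA per cell cannot be told apart. RNA quality was read from Gapdh and beta-actin control probe sets, whose mean log2 ratio of 3′ to 5′ signal was 1.33 to 1.59 in the tumours, 1.11 to 1.19 in P7 GNPC and 1.23 to 2.43 in E16.5 DBS, and its part in the results was not tested.

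Differences between groups are of log2(value + 18), so that changes of dim genes come out too small, and were tested with limma across all 45037 probe sets. A probe set was called when its Benjamini-Hochberg adjusted p was under 0.05 and its difference at least 1, which is 2-fold. Against P7 GNPC, 2 member probe sets were called higher and 5 lower in the tumours, that is 7 of 14, where 11.6% of all probe sets were called (3.48% higher and 8.1% lower, and 18.3% of those past a low-value filter). No overlap between groups was seen for 9 of the 14, against 26% of all probe sets. Against E16.5 DBS, 6 were called higher and 2 lower, 8 of 14 in all, where 22.3% of all probe sets were called (10% higher and 12.3% lower, and 34.2% of those past the filter). No overlap was seen for 8 of the 14, against 33.3% of all probe sets. Between the normal tissues, 9 were called higher and 0 lower in P7 GNPC than in E16.5 DBS, where 11.4% of all probe sets were called (6.06% higher and 5.36% lower, and 17.5% of those past the filter). No overlap was seen for 10 of the 14, against 35.6% of all probe sets. The median difference over the 14 was -0.36, 0.11 and 2.59 in the 3 comparisons, against -0.03, -0.01 and 0.03 over all probe sets. The 3 comparisons share samples pairwise and are not independent.

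**Figure D1:**
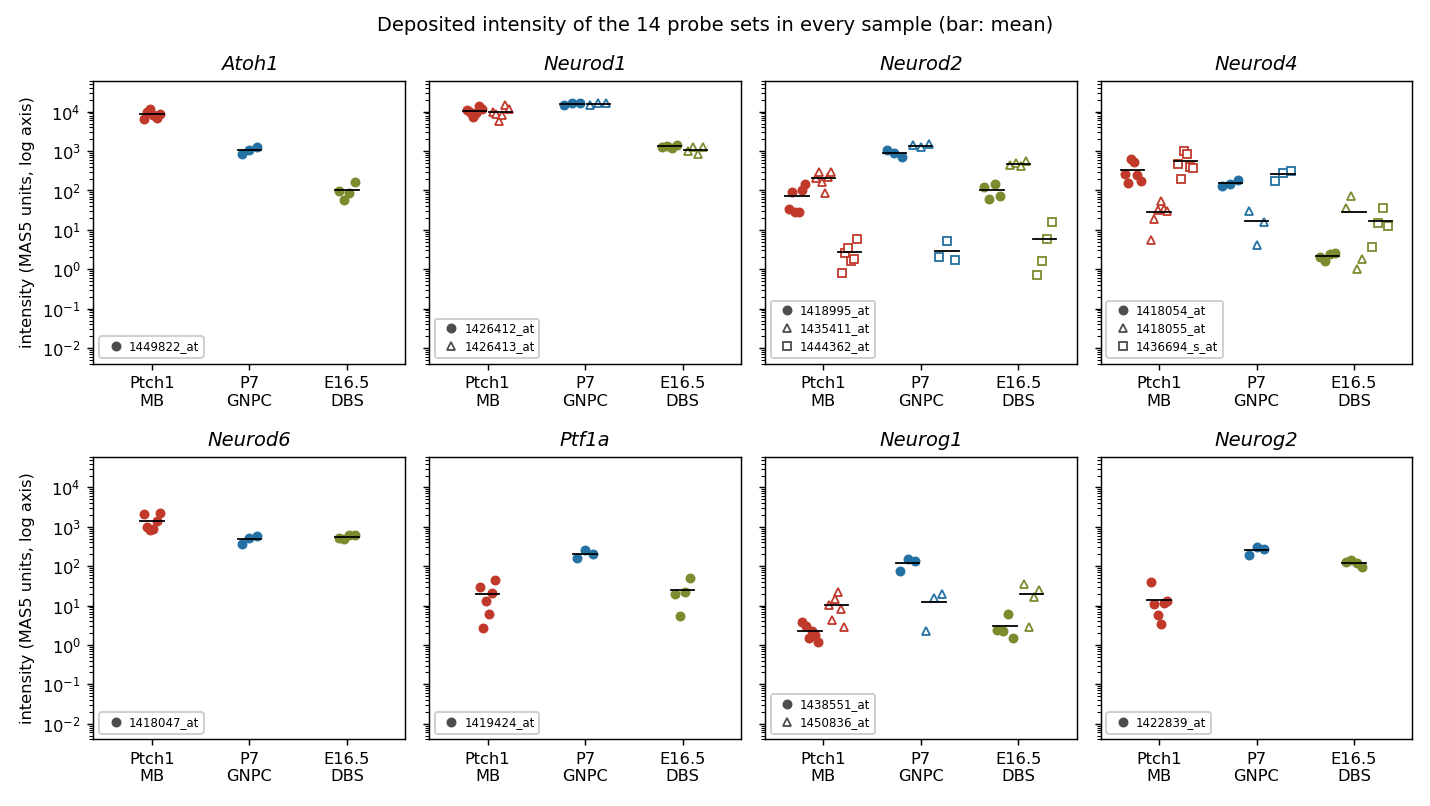
Deposited intensity (log axis) of the 14 probe sets in every sample, with the Ptch1 MB tumours, P7 GNPC and E16.5 DBS from left to right in each panel, 1 point a sample, 1 marker shape a probe set and a bar at the mean. Atoh1 descends from tumours to P7 GNPC to E16.5 DBS without overlap, whereas Ptf1a, Neurog2 and the first Neurog1 probe set are highest in P7 GNPC. So are Neurod1 and both brighter Neurod2 probe sets.

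Atoh1, the factor that rhombic lip cells and granule neuron precursors depend on, was the member with the largest rise in the tumours. Its probe set (1449822_at) read 6383.3 in the lowest tumour, 8389 in the median and 11733.4 in the highest. It read 825.7, 1066.4 and 1251.8 in P7 GNPC, and 97.9, 56.1, 87.6 and 166.5 in E16.5 DBS. Every tumour stood above every P7 GNPC sample, and every P7 GNPC sample above every E16.5 DBS sample; in 3 of 4 E16.5 DBS samples the value was below the array's own median.
The log2 difference from P7 GNPC was 3.01 ± 0.24 (SE; limma adjusted p = 5.92e-07), a rank of 56 from the top among the 45037 probe sets. From E16.5 DBS it was 6.22 ± 0.22 (limma adjusted p = 1.01e-11), a rank of 8. P7 GNPC exceeded E16.5 DBS by 3.21 ± 0.26 (limma adjusted p = 3.97e-07). Atoh1 varied by 1.84 times between the highest and the lowest tumour, and the difference from P7 GNPC stayed between 2.85 and 3.15 when any 1 sample was left out. The proliferating precursor markers, given above, ran in the same order of groups, and their part in the Atoh1 difference was not tested.

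Neurod1, which granule neurons need as they differentiate, followed another order. Its first probe set (1426412_at) read 7260.5 in the lowest tumour, 10469 in the median and 13633.2 in the highest, against 15135.6, 16153 and 17020.5 in P7 GNPC, and against 1264.3, 1358, 1196.5 and 1423.1 in E16.5 DBS. The tumours lay wholly between the normal tissues, below P7 GNPC and above E16.5 DBS, and the second probe set (1426413_at) showed the same separation.
The difference from P7 GNPC was -0.65 ± 0.15 (SE, 95% interval -0.96 to -0.33; limma adjusted p = 0.00437) and -0.77 ± 0.22 on the second probe set (-1.23 to -0.31; limma adjusted p = 0.0148), both short of the 2-fold minimum and so not called. The arrays differed in their medians, 91.4 to 108.8 in the tumours and 114 to 117.7 in P7 GNPC, and once every array was given the same median the differences shrank to -0.4 and -0.52, with limma adjusted p = 0.087 and 0.105; with quantile normalization they were -0.88 and -1.02. Against E16.5 DBS the tumours were higher by 2.96 ± 0.14 and 3.12 ± 0.2 (limma adjusted p = 1.23e-10 and 3.25e-09). P7 GNPC exceeded E16.5 DBS by 3.6 ± 0.16 and 3.89 ± 0.23 (limma adjusted p = 1.8e-09 and 2.17e-08), the second of which ranked 45 of all probe sets. Among the 6 tumours, tumour 3 had the highest Atoh1 (11733.4) and the lowest Neurod1 on both probe sets (7260.5 and 5764.8).

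Neurod2, a factor of maturing neurons related to Neurod1, was lower in the tumours than in P7 GNPC on both of its readable probe sets. The brighter (1435411_at) read 84.8 in the lowest tumour, 217.7 in the median and 300.5 in the highest, against 1388.1, 1249.6 and 1502.1 in P7 GNPC, and against 432.9, 489.1, 423.5 and 551 in E16.5 DBS. No tumour reached any normal sample.
The difference was -2.7 ± 0.27 from P7 GNPC (SE; limma adjusted p = 4.22e-06) and -1.19 ± 0.25 from E16.5 DBS (limma adjusted p = 0.000944). The second probe set (1418995_at) read 27.9 to 147.1 in the tumours, 699.5 to 1039.3 in P7 GNPC and 60.8 to 150 in E16.5 DBS. It fell by 3.49 against P7 GNPC (limma adjusted p = 1.27e-05), but overlapped with E16.5 DBS, where its difference was -0.54 with a 95% interval of -1.32 to 0.24 (limma adjusted p = 0.267). Between the normal tissues P7 GNPC was higher on both, by 1.51 ± 0.3 and 2.95 ± 0.43 (limma adjusted p = 0.00142 and 0.000127). The lower level in the tumours than in E16.5 DBS thus rested on 1 probe set, and its call was lost without tumour 4 (-0.98) and with the mean of the gene's probe sets (-0.63). The third probe set (1444362_at) was below the array median in all 13 samples, at 0.7 to 15.5, and called in none of the comparisons. Markers of differentiated granule neurons averaged 7.59 to 10.6 in the tumours, 11.1 to 11.3 in P7 GNPC and 9.17 to 9.38 in E16.5 DBS on the log2 scale. Of the 9 measured, 7 were called lower in the tumours than in P7 GNPC, against 10.1% of all genes. Their part in the Neurod2 difference was not tested.

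Neurod4, known in the mouse as a factor that acts with other proneural genes in the embryonic hindbrain and retina, was raised in both cerebellar groups over E16.5 DBS. Its brightest probe set (1436694_s_at) read 195.2 in the lowest tumour, 434.7 in the median and 1007.3 in the highest, against 177.1, 284.3 and 306 in P7 GNPC, and against 3.6, 15.3, 36.6 and 12.4 in E16.5 DBS, where every sample was below the array median. Its second probe set (1418054_at) read 154.7 to 622.6 in the tumours and 129.6 to 179.7 in P7 GNPC, against 1.6 to 2.6 in E16.5 DBS.
The tumours exceeded E16.5 DBS by 3.92 ± 0.38 and 3.93 ± 0.33 (SE; limma adjusted p = 3.34e-07 and 7.32e-08), and P7 GNPC exceeded E16.5 DBS by 3.02 ± 0.45 and 3.07 ± 0.39 (limma adjusted p = 0.000136 and 3.4e-05). These sizes depend on the pseudocount, because the E16.5 DBS values lie near or below it. Tumours and P7 GNPC overlapped, and the differences of 0.9 (95% interval 0.02 to 1.78; limma adjusted p = 0.134) and 0.86 (0.09 to 1.63; limma adjusted p = 0.0993) were not called. Without tumour 2, the tumour lowest for both probe sets, both passed (1.15, limma adjusted p = 0.0264, and 1.03, limma adjusted p = 0.0384). The remaining probe set (1418055_at) stayed below the array median in all 13 samples, at 1 to 73.

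Neurod6, best known from neurons of the cerebral cortex, was the other member called higher in the tumours than in both normal tissues. It read 832.2 in the lowest tumour, 1196 in the median and 2297.5 in the highest (1418047_at), against 362.4, 521.6 and 569.2 in P7 GNPC, and against 525.9, 493.2, 625.4 and 619.9 in E16.5 DBS. No tumour overlapped with a normal sample, while the normal tissues overlapped with each other.
The difference was 1.42 ± 0.29 from P7 GNPC (SE; limma adjusted p = 0.00164) and 1.19 ± 0.26 from E16.5 DBS (limma adjusted p = 0.00152), and between the normal tissues -0.23 with a 95% interval of -0.9 to 0.43 (limma adjusted p = 0.666). Tumours 1 and 6, at 2093.7 and 2297.5, were the highest, and leaving out any 1 sample kept the difference from P7 GNPC between 1.23 and 1.55.

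Ptf1a, the factor that cerebellar GABAergic neurons require in the mouse, went opposite to Atoh1 in the tumours. It read 2.7 in the lowest tumour, 16.6 in the median and 45.5 in the highest (1419424_at), against 165, 252.3 and 208 in P7 GNPC, and against 19.5, 5.5, 22.7 and 50.4 in E16.5 DBS. It was below the array median in all 6 tumours and all 4 E16.5 DBS samples, which overlapped, and above it in all 3 P7 GNPC samples.
The difference between the tumours and P7 GNPC was -2.69 ± 0.37 (SE; limma adjusted p = 5.49e-05), and P7 GNPC exceeded E16.5 DBS by 2.5 ± 0.39 (limma adjusted p = 0.000241). From E16.5 DBS the tumours differed by -0.19 with a 95% interval of -0.9 to 0.52 (limma adjusted p = 0.703). Since values in the tumours sit near the pseudocount, the size of the fall ran from -3.8 with a pseudocount of 1 to -1.72 with 64, and the call held with both.

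Neurog2, a factor of ventricular zone progenitors, was lower in the tumours than in both normal tissues. It read 3.4 in the lowest tumour, 11.4 in the median and 39.4 in the highest (1422839_at), against 187.8, 299 and 276.8 in P7 GNPC, and against 124.3, 142.1, 118.8 and 94.1 in E16.5 DBS. The 3 groups did not overlap, and all 6 tumours were below the array median.
The difference was -3.14 ± 0.29 from P7 GNPC (SE; limma adjusted p = 1.67e-06) and -2.17 ± 0.26 from E16.5 DBS (limma adjusted p = 3.96e-06). P7 GNPC and E16.5 DBS differed by 0.97 ± 0.31 (limma adjusted p = 0.0316), just under the 2-fold minimum, and the difference was called without P7 GNPC 1 (1.16) or without E16.5 DBS 2 (1.05). It missed the p threshold with a pseudocount of 1 (1.07, limma adjusted p = 0.215), on a common array median (0.86, limma adjusted p = 0.0611) and with quantile normalization (0.86, limma adjusted p = 0.0587). As the tumour values lie around the pseudocount, the tumour differences ran from -4.41 with a pseudocount of 1 to -2.03 with 64 against P7 GNPC, and from -3.35 to -1.24 against E16.5 DBS, and all 4 were called.

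Neurog1, its close relative, gave different readings on its 2 probe sets. The first (1438551_at) read 1.2 in the lowest tumour, 2.05 in the median and 3.9 in the highest, against 77.5, 148.4 and 135.3 in P7 GNPC, and against 2.4, 2.2, 6.1 and 1.5 in E16.5 DBS. It was below the array median in every tumour and every E16.5 DBS sample and above it in 2 of 3 P7 GNPC samples, with a difference of -2.73 ± 0.2 between tumours and P7 GNPC (SE; limma adjusted p = 2.74e-07) and of 2.68 ± 0.21 between P7 GNPC and E16.5 DBS (limma adjusted p = 3.42e-07). Both sizes depend on the pseudocount: they were -5.2 and 4.97 with a pseudocount of 1, and -1.45 and 1.44 with 64. With the mean of the gene's probe sets they were -1.41 and 1.2. The tumours and E16.5 DBS overlapped, with a difference of -0.05 (95% interval -0.43 to 0.34; limma adjusted p = 0.863).
The second probe set (1450836_at) was below the array median in all 13 samples, at 2.2 to 34.7, and its differences of -0.08, -0.36 and -0.28 were not called. The probe sets thus disagree for P7 GNPC, and which of them measures Neurog1 was not tested. Of the 14 member probe sets, 10 exceeded their array's median in at least 3 arrays; the 4 that did not were both Neurog1 probe sets and the dim ones of Neurod2 and Neurod4.

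**Figure D2:**
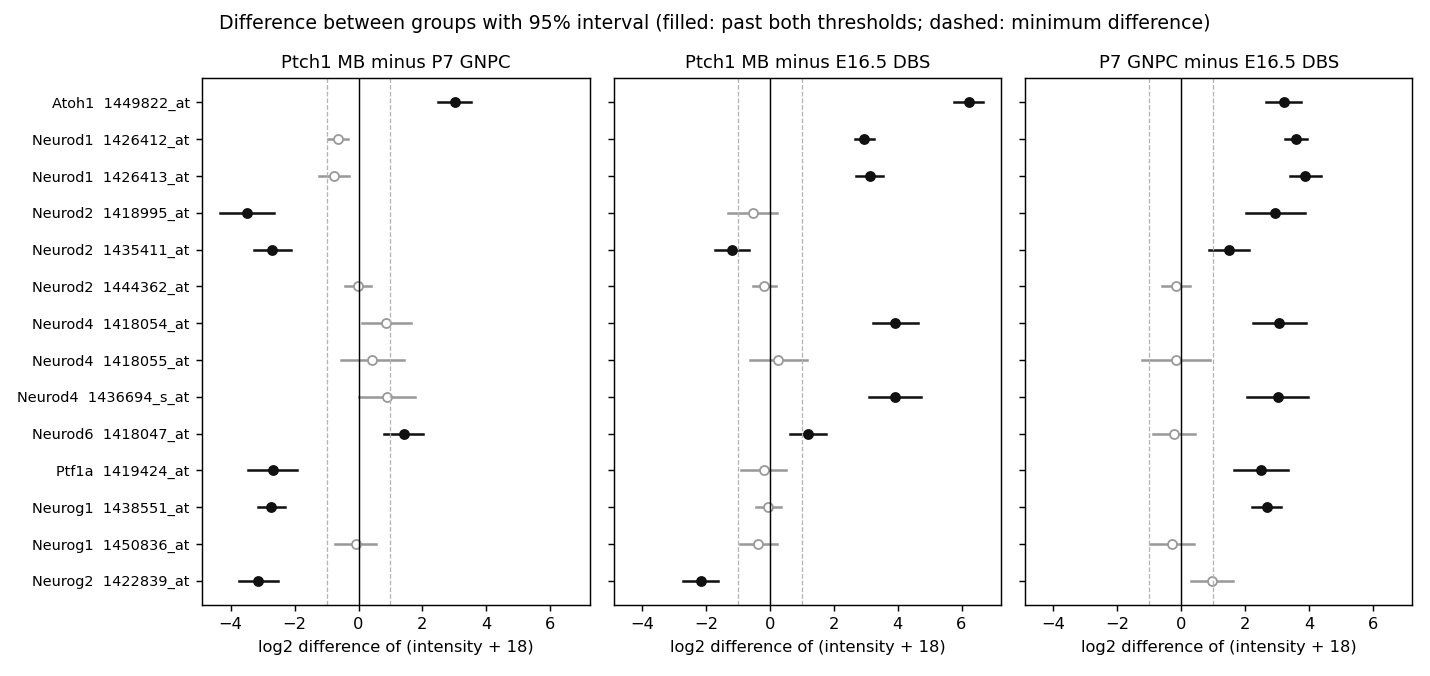
Log2 difference of (intensity + 18) between groups for the 14 probe sets with 95% intervals, filled where both thresholds were passed and with dashed lines at the 2-fold minimum. In tumours minus P7 GNPC, Atoh1 (3.01) and Neurod6 (1.42) lie to the right and both brighter Neurod2 probe sets, Ptf1a, Neurog2 and the first Neurog1 probe set to the left, whereas all filled points of P7 GNPC minus E16.5 DBS lie to the right.

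The ventricular zone members Ptf1a, Neurog2 and Neurog1 (first probe set) were thus low in the tumours, where Atoh1 was high, and higher in P7 GNPC. This was not particular to them, as Neurod2 also differed between tumours and P7 GNPC, by -2.7 and -3.49 on its brighter probe sets. Ptf1a (-0.19) and the first Neurog1 probe set (-0.05) were not called between tumours and E16.5 DBS, where both were low too. Ptf1a, Neurog2 and the first Neurog1 probe set were lower in the tumours by 2.69, 3.14 and 2.73 on the log2 scale than in P7 GNPC, in the samples whose Purkinje markers averaged at least 11.5; of those 8 markers, 7 were called lower in the tumours and 0 higher. Markers of other cell types were also called lower: 7 of 10 of astrocytes and Bergmann glia, 6 of 8 of meninges and fibroblasts, 5 of 8 of oligodendrocytes and 3 of 6 of endothelium. With arrays scaled to the same median these counts were 6, 5, 5 and 3, and 1 oligodendrocyte marker was called higher. Markers of microglia and macrophages were called higher for 8 of 10. Over all genes, 10.1% were called lower and 4.61% higher. On the mean log2 scale the astrocyte list stood at 10.1 to 11.3 in the tumours and 12.1 to 12.2 in P7 GNPC, and the meningeal list at 7.66 to 8 in the tumours and 9.72 to 9.99 in P7 GNPC. Cerebellar interneuron markers averaged 7.57 to 8.59 in the tumours and 9.13 to 9.95 in P7 GNPC, and 3 of the 8 were called lower. Sst and Sorcs3 were below the array median in every tumour, and Sorcs3 in every P7 GNPC sample too. Pvalb, at a mean of 2241 in the tumours and 4027 in P7 GNPC, was not called. In E16.5 DBS the interneuron markers averaged 10.1 to 10.4. Between the normal tissues, 1 of them (Pvalb) was called higher and 4 lower in P7 GNPC. The part of these cell types in the 3 falls was not tested.

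Other lineage genes were examined as lists, 1 probe set a gene, with 18193 genes tested. Of 16 rhombic lip and granule lineage factors, 2 were called higher and 2 lower in the tumours than in P7 GNPC, with a median log2 difference of 0.03 against -0.03 over all genes (4.61% of genes were called higher and 10.1% lower). Those higher were Pou4f1, a sensory neuron factor (3.42), and the LIM factor Lhx2 (2.41). Pou4f1 varied widely among the tumours (1493 ± 1264, SD, n = 6), unlike Lhx2 (338.5 ± 50.6, SD, n = 6). Those lower were Eomes, which unipolar brush cells express (-3.5), and the homeobox gene Tlx3 (-1). With arrays scaled to the same median the count was 4 higher and 1 lower. Against E16.5 DBS 7 were called higher and 1 lower in the tumours, with a median of 0.86 against -0.05 over all genes (10.9% of genes higher and 15.8% lower). The largest were Insm1, a zinc finger factor of neuronal progenitors (13749 ± 1521, SD, n = 6, in tumours and 301.2 ± 95.7, SD, n = 4, in E16.5 DBS), at 5.47, Barhl1, a homeobox gene of granule neuron precursors, at 3.87, and Pax6, a paired-box factor of the rhombic lip, at 3.26. Between P7 GNPC and E16.5 DBS, 7 were called higher and 2 lower, with a median of 0.84 against -0.01 over all genes (6.23% of genes higher and 7.16% lower). The largest were Pou4f1 (-4.96), Insm1 (4.51) and Eomes (3.92).

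Of 20 listed GABAergic lineage factors, 16 were measured. Against P7 GNPC 0 were called higher and 5 lower in the tumours (4.61% and 10.1% of all genes), with a median of -0.49. Once every array was given the same median 1 was higher and 5 lower. Tfap2b is also in the interneuron marker list above. The largest falls were those of the AP-2 factors Tfap2b (-4.03) and Tfap2a (-3.57) and of the LIM factor Lhx5 (-2.35), which is found in Purkinje cell precursors. Against E16.5 DBS 1 was called higher and 9 lower (10.9% and 15.8% of all genes), with a median of -1.46. Tfap2b (106 ± 100, SD, n = 6, in tumours and 2670 ± 380.3, SD, n = 4, in E16.5 DBS) fell by 4.73, the homeobox gene Gbx1 by 4.34 and Tfap2a by 3.77, while Lhx1 was the exception at 1.66. Between P7 GNPC and E16.5 DBS 1 was called higher and 3 lower (0 and 4 once every array was given the same median), with a median of -0.69, while the member Ptf1a was higher in P7 GNPC. Of all genes, 6.23% were called higher and 7.16% lower there. All 4 measured genes of GABA and glycine transmission were called lower in the tumours in both comparisons, with a median of -3.83 from P7 GNPC and -4.99 from E16.5 DBS. They were the GABA-synthesizing enzymes Gad1 and Gad2, the vesicular transporter Slc32a1 and the glycine transporter Slc6a5. Of the glutamate transporters measured, Slc17a6 was called lower than in E16.5 DBS both in the tumours (-1.85) and in P7 GNPC (-1.3). Slc17a7 was called in neither tumour comparison. It was dim, with means of 31.6 in the tumours, 65 in P7 GNPC and 29 in E16.5 DBS.

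**Figure D3:**
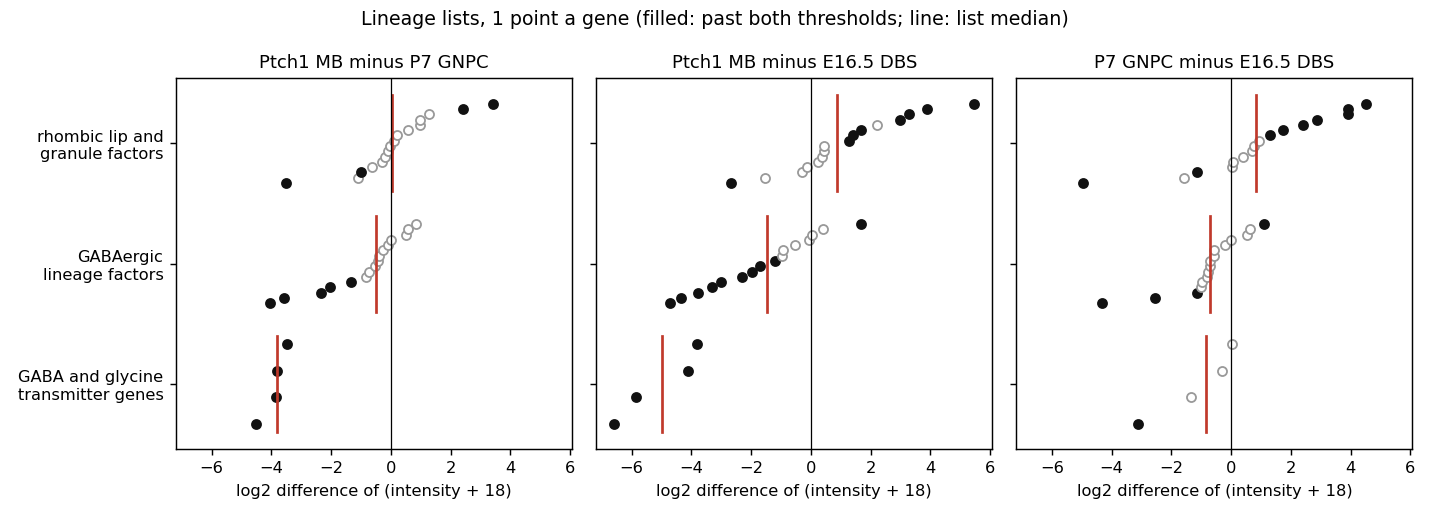
Log2 difference of (intensity + 18) for each gene of 3 lists in the 3 comparisons, 1 point a gene, filled where both thresholds were passed, with a line at the list median. The 4 GABA and glycine transmitter genes all lie to the left in both tumour comparisons, while the rhombic lip factors centre at 0.03 against P7 GNPC and at 0.86 against E16.5 DBS.

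The E proteins that pair with these factors and the Id proteins that hold such pairs off DNA were measured for 7 genes. Of all genes, 4.61% were called higher and 10.1% lower in tumours than in P7 GNPC, and 10.9% and 15.8% against E16.5 DBS. Between the normal tissues the shares were 6.23% and 7.16%. Against P7 GNPC 0 were called higher and 2 lower in the tumours, namely Id4 (-3.81) and Id3 (-1.51), in the comparison where 7 of 10 astrocyte and Bergmann glia markers were called lower (median -1.52); the part of those cells was not tested. The list median was -0.13, or 0.12 on a common array median. Against E16.5 DBS Tcf3 (1.98) and Tcf4 (1.43) were called higher and Id4 (-4.79) and Id3 (-1.14) lower. Id4 was 600.6 ± 600 (SD, n = 6) in the tumours, 5538 ± 171.2 (SD, n = 3) in P7 GNPC and 10991 ± 1291 (SD, n = 4) in E16.5 DBS. Between the normal tissues, 2 were called higher and 0 lower in P7 GNPC, Tcf3 (1.25) and Tcf4 (1.12), and 1 once every array was given the same median. Of 11 measured other neural bHLH genes, 0 were called between tumours and P7 GNPC by limma (5 at an unadjusted p under 0.05, and 1 called higher once every array was given the same median). Hey1 (0.97, limma adjusted p = 0.00617), Hey2 (-0.83, limma adjusted p = 0.0202) and Olig1 (0.72, limma adjusted p = 0.043) passed the p threshold but not the 2-fold minimum. Against E16.5 DBS 3 were called higher and 2 lower in the tumours. Nhlh2, a factor of young neurons, was the largest (3.18). Between P7 GNPC and E16.5 DBS 2 were called higher and 1 lower, with Nhlh2 at 3.09.

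The genes whose profile over the 13 samples lay closest to those of Atoh1, Neurod1 and Ptf1a were found by the root mean square difference of centred log2(value + 18) values among 12269 genes. For Atoh1 they were Lockd (0.69), Esco2 (0.77), Tbata (0.78), Cog7 (0.79) and Tk1 (0.85). Esco2, a cohesin acetyltransferase, averaged 1020 in the tumours, 385.3 in P7 GNPC and 22.1 in E16.5 DBS. For Neurod1 they were St18 (0.26), Pax6 (0.29), Zbtb18 (0.38), Septin4 (0.38) and Nhlh2 (0.41). The measure grows with the size of a profile's changes, so the distances of different members are not set against each other. St18, a zinc finger factor, averaged 3714 in the tumours, 5539 in P7 GNPC and 413.4 in E16.5 DBS. For Ptf1a they were Ucma (0.4), 1810010K12Rik (0.47), Aard (0.57), Tbx18 (0.58) and Gask1b (0.58). Because these genes were picked for likeness to a member's profile, the order of their group means follows from that choice.

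Within the tumours the members differed in how much they varied. The SD over the 6 tumours on the log2 scale was 0.32 for Atoh1 and 0.31 and 0.45 for the Neurod1 probe sets, against a median of 0.27 over probe sets in the brighter part of the array. It was 0.83 for Neurod4, 0.63 for Neurod6 and 0.6 for Neurod2 (brightest probe sets), higher than in 96.4%, 92.3% and 91.2% of those probe sets. Neurod4 was highest in tumours 3 and 4 (1007.3 and 857.2), in which Neurod2 was lowest (159.7 and 84.8), and lowest in tumour 2 (195.2), in which Neurod2 was highest (300.5). On the second Neurod2 probe set (1418995_at) tumours 3 and 4 were again lowest (28.5 and 27.9). Tumour 2 read 93 on it, and tumour 6 was the highest (147.1).
Over the 6 tumours Neurod2 and Neurod4 (brightest probe sets only) had Pearson's r = -0.82 (exact permutation p = 0.0347) and Spearman's rho = -0.94 (exact permutation p = 0.0167), and r = -0.9 without the 2 tumours farthest from the median of Neurod2. It was 1 of 28 pairs of members computed, of which 2 had an exact two-sided p under 0.05 for r and 0 after Benjamini-Hochberg adjustment (lowest adjusted p = 0.467). The other was Neurod6 with Ptf1a (r = 0.9, exact permutation p = 0.0222, rho = 0.77, exact permutation p = 0.103, r = 0.6 without 2 tumours), where Ptf1a was below the array median throughout. By rank, Neurod6 with Neurog2 also had a low p (rho = 0.89, exact permutation p = 0.0333, Benjamini-Hochberg adjusted p = 0.467), with r = 0.75 (exact permutation p = 0.05). Neurog2 too was below the array median in every tumour. Atoh1 and Neurod1 had r = -0.76 (exact permutation p = 0.0792) and rho = -0.6 (exact permutation p = 0.242), with r = -0.64 without 2 tumours. Purkinje markers averaged 6.36, 10.3, 7.24, 7.91, 8.34 and 8.69 in tumours 1 to 6 and differentiated granule neuron markers 7.59, 10.6, 8.27, 8.6, 9.04 and 9.63, both highest in tumour 2; their part in these relations was not tested.

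**Figure D4:**
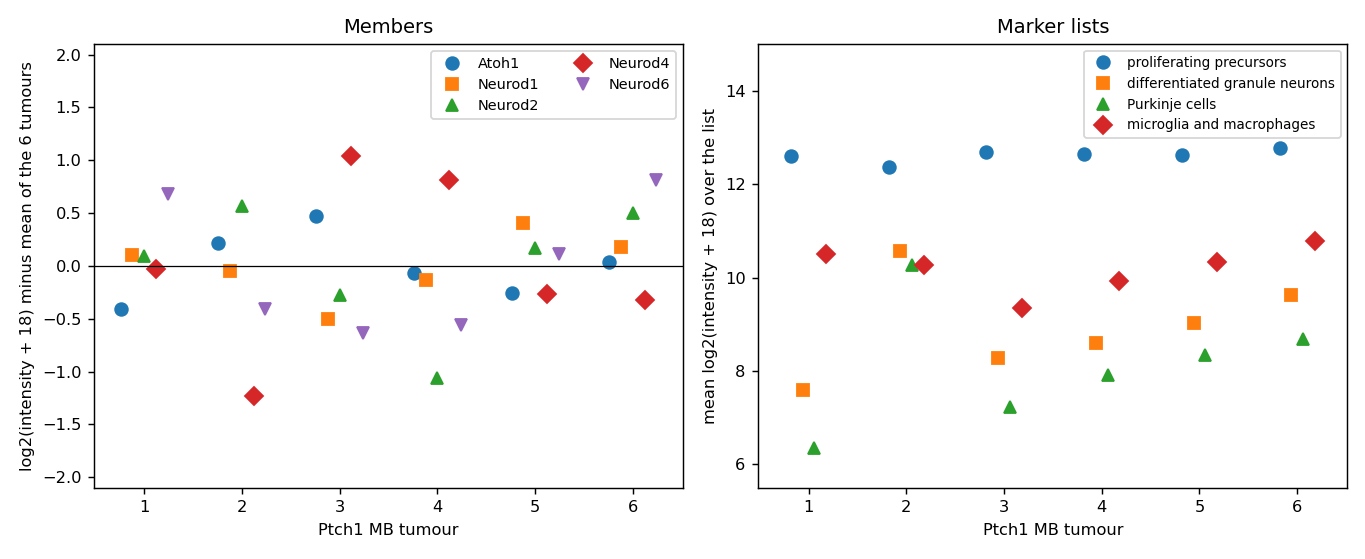
Left, log2(intensity + 18) of 5 members in the 6 tumours minus their mean over the tumours, and right, the mean of 4 marker lists on the same log2 scale. Neurod4 is highest in tumours 3 and 4 and lowest in tumour 2, where the Purkinje and differentiated granule neuron lists are highest, and the proliferating precursor list stays between 12.4 and 12.8.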

How the data were processed

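RNA was labelled from 100 ng of total RNA by a 2-cycle amplification, per the labels' protocols. The deposited values are linear intensities, 1 array per sample, and the submitters' processing notes name MAS5 without a version. In the authors' intensity table, the mean of an array is 500 once 2% of values at each end are set aside, and values run from 0.1 to 37660.4. Detection calls were not used.

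Of 45101 probe sets, 64 controls were left out. Of the rest, 34945 have 1 symbol in the platform annotation, 932 several and 9160 none. No filter on low values was applied, so that every member was tested. Values were taken as log2(value + 18), 18 being close to their 20th percentile (18.2), and fitted with limma 3.58.1 (R 4.3.3; 1 mean per group, 13 samples, eBayes with an intensity trend, 10 residual degrees of freedom). Groups came from the source names; replicate numbers follow accession order. The test was checked on simulated normal noise, with log2 changes of 1.5 to 3 planted in the brighter part of the array. It recovered 89.6% to 100% of them. Dim probe sets, such as several members here, were not covered by this check. Called means an adjusted p under 0.05 and a difference of at least 1.

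Named list genes were the at most 3 called genes with the largest difference per list and comparison. Tlx3, Id3, Slc6a5, Gad1, Lhx1, Hey1, Hey2 and Olig1 fall outside this in a comparison and were named after their values were seen. Members and lists were chosen with earlier results of these data known. For genes of lists, the probe set with the highest mean was used. Sequences are RefSeq's, on GRCm38.p6; all 8 genes matched. The low-value filter kept probe sets above their array's median in at least 3 arrays. Alternatives were the pseudocount, scaling, low-value filter, gene summary, trend, samples fitted, threshold and leaving out each sample.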

Additional observations from a re-analysis of the deposited data

How the results depend on the processing

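No paired analysis was possible because the labels give no replicate numbers or shared litters. Of 691 single values of member probe sets under the alternatives, 665 kept their direction and their side of the threshold, 7 passed it newly, 2 lost it and 17 changed sign, 0 of them while called. All 17 were differences between groups whose values lay below the array median. Leaving out each sample, the third Neurod2 probe set (1444362_at) ran from -0.061 to 0.054, from -0.28 to 0.0036 and from -0.26 to 0.022 in the 3 comparisons in the order below, and the second Neurog1 probe set from -0.35 to 0.095 against P7 GNPC; on a common array median they were 0.016 and 0.0019 there. Against E16.5 DBS, the dim Neurod4 probe set (1418055_at) ran from -0.054 to 0.699 in the tumours and from -0.48 to 0.27 in P7 GNPC (0.32 with a pseudocount of 1), the first Neurog1 probe set from -0.084 to 0.018 and Ptf1a from -0.44 to 0.075 in the tumours. The 9 whose call changed were of Neurod4, Neurod1, Neurod2 and Neurog2; among them, the second Neurod1 probe set was called against P7 GNPC with quantile normalization (-1.02) but had -0.52 on a common array median, and Neurod4 (1418054_at) when arrays shared 1 median (1.09) and with quantile normalization (1.04). Neurod2's brighter probe set lost its call against E16.5 DBS with the mean of its probe sets (-0.63). The number of member probe sets called was 7 to 9 against P7 GNPC, 7 to 8 between tumours and E16.5 DBS and 9 to 10 between the normal tissues when each sample was left out. Counted as genes, 5 were called between the normal tissues with 1 filtered probe set a gene, against 9 probe sets of 6 genes, as Neurog1 did not pass the filter. With the mean of each gene's probe sets 5 were called between tumours and E16.5 DBS, against 8 probe sets of 6 genes, as Neurod2 lost its call. Over all probe sets 5212, 10063 and 5147 were called in the 3 comparisons (tumours with P7 GNPC, tumours with E16.5 DBS, P7 GNPC with E16.5 DBS). With 1 filtered probe set a gene the counts were 2534, 4434 and 2239, with the mean of probe sets 2123, 3971 and 1937, and with no minimum difference 11224, 19337 and 10492; leaving out each sample they ran from 4638 to 5588, from 9951 to 10259 and from 4450 to 5308. Scaling arrays to the same median moved the median difference between tumours and P7 GNPC by 0.16, and the split of all calls, 1566 higher to 3646 lower, became 2728 to 2728.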
